A study of Mus musculus with 68 samples.

Results

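The genes described here were Irf7 and 9 type I interferon effectors, Mx1, Mx2, Oas1a, Oas2, Oas3, Oasl2, Ifit1, Ifit3 and Isg15. They were chosen by symbol, and all 10 were found among the 23872 complete entries of an RNA-seq count table and passed the filter on low counts. The libraries were made from polyA RNA of whole lung. The groups were wild-type male CAST/EiJ mice exposed to 1,3-butadiene (BD), CAST/EiJ mice in clean air, C57BL/6J mice exposed to BD and C57BL/6J mice in clean air, and the labels used here give no ages. BD, an industrial gas that the body turns into reactive epoxides, was given 6 h a day on weekdays for 2 weeks. CAST/EiJ is an inbred strain derived from the wild subspecies Mus musculus castaneus, and C57BL/6J is the standard laboratory strain and the source of the mouse reference genome. Libraries are named here by the number in their titles, and those of clean-air C57BL/6J as replicates 1 to 5, of which replicate 1 has a title number over 100 and the others numbers 3 to 6.

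The labels put 6 RNA-seq libraries in CAST/EiJ BD, 7 in CAST/EiJ clean air, 6 in C57BL/6J BD and 5 in C57BL/6J clean air. Library totals were 10597990 to 50001571 counts, so that a level of 1 CPM (counts per 1000000 counts of a library) was about 10.6 counts in the smallest library. Number 8, labelled CAST/EiJ BD, was given apart and entered no mean or test below, which left 5 libraries in that group. Its level lay within the range of the 11 C57BL/6J libraries for 10 of the 10 genes and within the range of the other 12 CAST/EiJ libraries for 5 of them. The labels name each library as a separate sample but do not say that each came from 1 animal, so the p-values measure the spread between libraries. In whole lung, fewer cells of a type and less RNA per cell cannot be told apart.

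Type I interferons, the interferon alphas and interferon beta, bind the receptor made of Ifnar1 and Ifnar2. The kinases Jak1 and Tyk2 then activate STAT factors, which with Irf9 bind the interferon-stimulated response element in the promoters of antiviral genes. Irf7 is itself induced this way and drives further transcription of the interferon alpha genes. Many of these genes also hold a baseline level without infection. Mx1 and Mx2 are dynamin-like GTPases that block virus replication, and laboratory strains such as C57BL/6J carry defective alleles of both. Oas1a, Oas2 and Oas3 are oligoadenylate synthetases, enzymes that double-stranded RNA switches on. Oasl2 is a related oligoadenylate synthetase-like protein. Ifit1 and Ifit3 bind foreign RNA or support that binding, and Isg15 is a ubiquitin-like protein that is conjugated to other proteins.

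The response element is readable in the promoters of several of these genes. RefSeq windows of build GRCm38.p6 that ran from 250 bases before to 50 bases after the gene start were at hand for 7 of the 10 genes. They were searched on both strands for GAAANNGAAA, the core of the element. A match was present in 5 of the 7, in Oas1a, Oas3, Ifit1, Ifit3 and Isg15, and no match was found in the windows of Irf7 and Oasl2. In all, 1131 of 32851 windows held the motif (3.44%). The 160 bases before the start of these 5 genes are shown because they place the element beside the measurements, with the matches in capitals and TTTCNNTTTC marking a match on the opposite strand. The reference is C57BL/6J sequence, and the CAST/EiJ alleles were not used here.

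Ifit1, chr19:34640729-34640888, plus strand: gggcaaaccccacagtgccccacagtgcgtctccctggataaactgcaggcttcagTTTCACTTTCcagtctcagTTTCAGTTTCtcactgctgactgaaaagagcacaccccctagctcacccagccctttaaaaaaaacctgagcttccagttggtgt
Ifit3, chr19:34583369-34583528, plus strand: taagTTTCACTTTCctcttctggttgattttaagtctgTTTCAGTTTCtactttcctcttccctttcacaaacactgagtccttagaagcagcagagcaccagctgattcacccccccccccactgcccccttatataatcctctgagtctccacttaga
Isg15, chr4:156200819-156200978, minus strand: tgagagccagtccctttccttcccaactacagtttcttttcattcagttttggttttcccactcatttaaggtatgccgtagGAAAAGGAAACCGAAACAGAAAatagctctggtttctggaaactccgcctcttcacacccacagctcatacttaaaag
Oas3, chr5:120777660-120777819, minus strand: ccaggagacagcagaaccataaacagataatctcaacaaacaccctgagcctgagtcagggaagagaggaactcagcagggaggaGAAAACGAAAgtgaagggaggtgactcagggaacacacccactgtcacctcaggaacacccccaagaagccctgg
Oas1a, chr5:120907526-120907685, minus strand: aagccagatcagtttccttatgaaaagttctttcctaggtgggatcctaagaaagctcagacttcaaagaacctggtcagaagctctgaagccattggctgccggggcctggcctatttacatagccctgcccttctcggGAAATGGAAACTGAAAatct

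The 2 matches of Ifit1 and the 2 of Ifit3 shared the same letters, TTTCACTTTC and TTTCAGTTTC. In Isg15, 3 matches overlapped in a row from base -78 to base -57 before the start, and in Oas1a 2 overlapped from base -20 to base -5. Oas3 had 1 match, from base -75 to base -66. Genes with and without a match were found among those that differed between the strains. Of the 5 genes with a match, Oas3, Ifit3 and Isg15 were lower in CAST/EiJ in clean air and Oas1a and Ifit1 did not pass, while Irf7 and Oasl2, with no match in the window, were lower.

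The first question was how the strains differed at baseline. In clean air 7 of the 10 genes passed between CAST/EiJ and C57BL/6J, with Mx2 higher and Irf7, Oas2, Oas3, Oasl2, Ifit3 and Isg15 lower in CAST/EiJ (edgeR quasi-likelihood F test, adjusted p under 0.05 over 17377 genes). The strains are far apart across the transcriptome: 60.4% of all genes tested passed in this comparison, 29.4% higher and 31% lower, so 7 of 10 is near the background. The median log2 fold of the 10 genes was -1.42, against -0.00 over all genes tested. The ranges of the libraries did not overlap between the strains for 7 of the 10 genes, beside 31.9% of all genes tested. These were the 7 that passed. In the 2 BD groups 8 of 10 passed, against 42.7% of all genes, with the same 6 lower (22.3% of all genes were lower) and Mx1 and Mx2 higher in CAST/EiJ (20.4%). The ranges were apart for 5 of the 10, against 29.4% of all genes, and the median log2 fold was -1.0 beside -0.00.

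**Figure D1:**
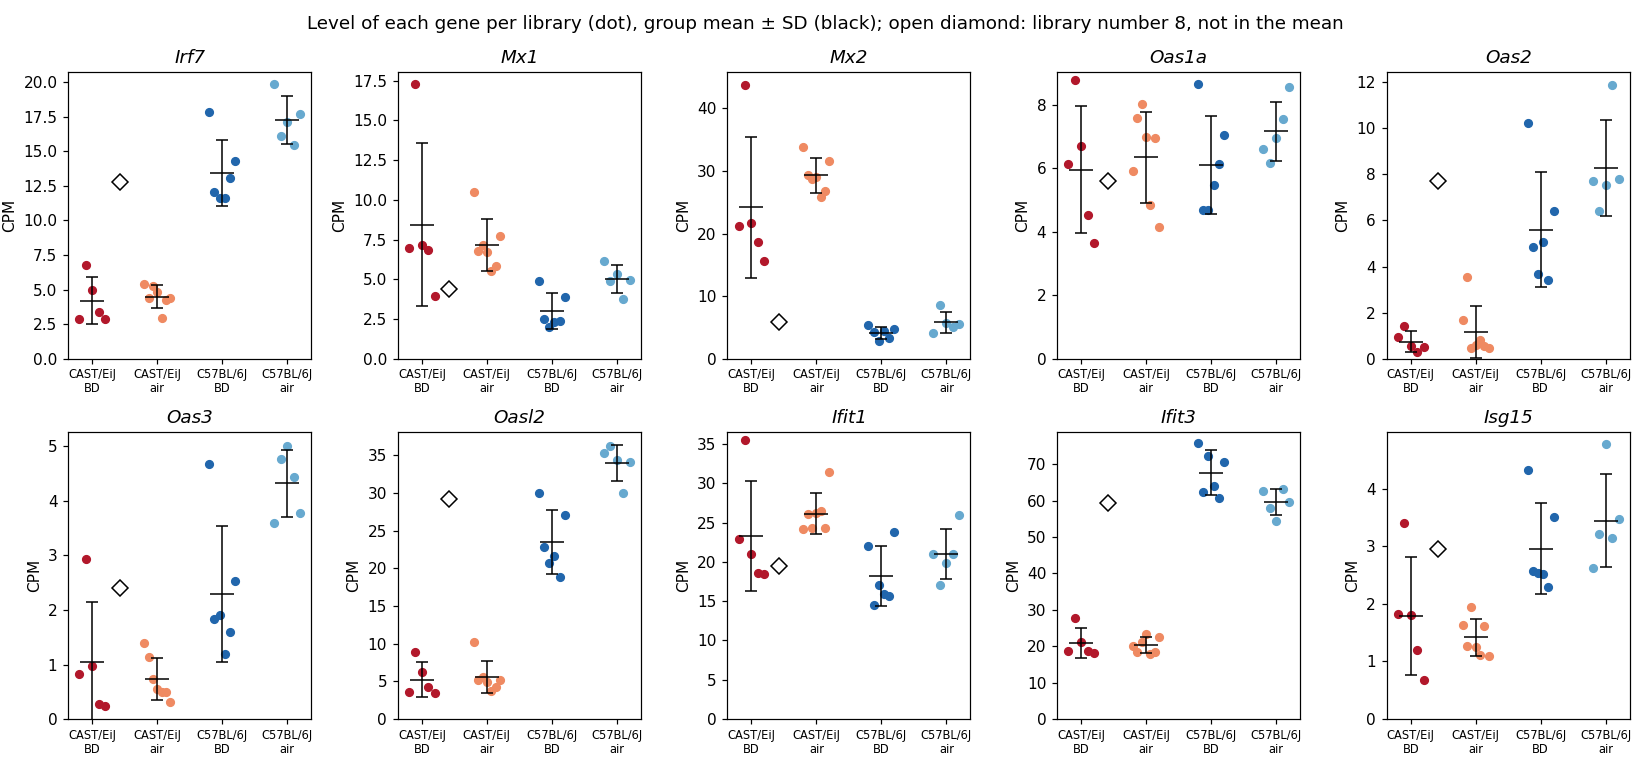
Level of each gene in CPM (linear axis from 0) in every library, by group, with the group mean and SD in black and library number 8 as an open diamond outside the groups. Irf7, Oasl2 and Ifit3 are lower and Mx2 is higher in all CAST/EiJ libraries than in any C57BL/6J library, while the diamond lies among C57BL/6J values; the highest CAST/EiJ BD point in each panel is number 9.

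Irf7, the transcription factor of the set, stood at 2.88, 6.80, 4.99, 3.40 and 2.88 CPM in CAST/EiJ BD libraries 7, 9, 10, 11 and 12. In clean-air CAST/EiJ it had a lowest value of 2.98, a median of 4.38 and a highest of 5.37 CPM. The C57BL/6J BD libraries had 11.6, 12.6 and 17.8 CPM as lowest, median and highest values, and clean-air C57BL/6J replicates 1 to 5 had 17.7, 19.9, 16.1, 17.1 and 15.4 CPM. Every CAST/EiJ library thus lay below every C57BL/6J library. Irf7 was 3.84-fold lower in clean-air CAST/EiJ (log2 fold -1.94, SE 0.178, adjusted p = 3.41e-09) and 3.27-fold lower in CAST/EiJ under BD (log2 fold -1.71, SE 0.192, adjusted p = 1.17e-07). Number 8 held 12.8 CPM.

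The Mx genes were the ones higher in CAST/EiJ. Mx2 had 21.2, 43.8, 21.7, 18.6 and 15.6 CPM in CAST/EiJ BD libraries 7, 9, 10, 11 and 12. Clean-air CAST/EiJ had 25.8, 29.1 and 33.9 CPM as lowest, median and highest values. No CAST/EiJ library overlapped C57BL/6J, in which the BD libraries had 2.83, 4.33 and 5.35 CPM in the same order and clean-air replicates 1 to 5 had 5.55, 4.20, 8.63, 5.76 and 5.05 CPM. Mx2 was 5.06-fold higher in CAST/EiJ in clean air (log2 fold 2.34, SE 0.221, adjusted p = 6.53e-09) and 5.71-fold higher under BD (log2 fold 2.51, SE 0.217, adjusted p = 1.99e-09). In the RefSeq table both Mx genes of the C57BL/6J assembly are listed as transcribed pseudogenes.

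Mx1 followed the same order less clearly. Its values were 6.96, 17.3, 7.15, 6.84 and 3.93 CPM in CAST/EiJ BD libraries 7, 9, 10, 11 and 12, against 1.99, 2.47 and 4.90 CPM as lowest, median and highest of C57BL/6J BD. In clean air, CAST/EiJ had 5.55, 6.79 and 10.5 CPM as lowest, median and highest, and C57BL/6J replicates 1 to 5 had 4.94, 6.15, 4.87, 5.35 and 3.79 CPM. The strains overlapped in both exposures, by 1 CAST/EiJ BD library (number 12) under BD. Mx1 was 2.76-fold higher in CAST/EiJ under BD (log2 fold 1.47, SE 0.284, adjusted p = 0.000194). In clean air it did not pass (log2 fold 0.52, SE 0.277, adjusted p = 0.110), but did without number 9 (adjusted p = 0.0399) and with only the compared groups in the fit (adjusted p = 0.0169; range over 31 alternatives 0.0169 to 0.227).

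Among the oligoadenylate synthetase genes, all on chromosome 5, Oas2, Oas3 and Oasl2 were lower in CAST/EiJ and Oas1a was not called. Oasl2 had 3.57, 8.85, 6.18, 4.24 and 3.39 CPM in CAST/EiJ BD libraries 7, 9, 10, 11 and 12 and 3.78, 5.16 and 10.3 CPM as lowest, median and highest in clean-air CAST/EiJ. C57BL/6J had 18.9, 22.2 and 30.1 CPM in the same order under BD, and 34.1, 35.4, 36.3, 34.4 and 30.0 CPM in clean-air replicates 1 to 5. The strains did not overlap. Oasl2 was 6.08-fold lower in CAST/EiJ in clean air (log2 fold -2.60, SE 0.220, adjusted p = 1.28e-09) and 4.60-fold lower under BD (log2 fold -2.20, SE 0.239, adjusted p = 9.25e-08).

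Oas2 was the gene with the lowest log2 fold of the 10 in both strain comparisons. It had 0.926, 1.43, 0.567, 0.280 and 0.491 CPM in CAST/EiJ BD libraries 7, 9, 10, 11 and 12, against 3.42, 4.94 and 10.2 CPM as lowest, median and highest in C57BL/6J BD. In clean air CAST/EiJ had 0.469, 0.613 and 3.54 CPM in that order, and C57BL/6J replicates 1 to 5 had 7.78, 7.72, 6.43, 7.54 and 11.9 CPM. Oas2 was 7.25-fold lower in CAST/EiJ in clean air (log2 fold -2.86, SE 0.436, adjusted p = 8.08e-06) and 7.89-fold lower under BD (log2 fold -2.98, SE 0.491, adjusted p = 3.52e-05). Within clean-air CAST/EiJ the libraries separated by title number: numbers 1 and 2 had 1.69 and 3.54 CPM, against 0.469 to 0.807 CPM in the 5 numbers over 100. The groups of titles did not overlap, and without numbers over 100 the clean-air log2 fold was -1.70 (adjusted p = 0.0131).

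Oas3 had 0.823, 2.93, 0.964, 0.280 and 0.245 CPM in CAST/EiJ BD libraries 7, 9, 10, 11 and 12. C57BL/6J BD had 1.19, 1.88 and 4.67 CPM as lowest, median and highest. The BD groups overlapped through number 9. In clean air the strains did not overlap, with 0.313, 0.555 and 1.40 CPM as lowest, median and highest in CAST/EiJ and 3.77, 3.60, 4.78, 5.01 and 4.44 CPM in C57BL/6J replicates 1 to 5. Oas3 was 5.91-fold lower in clean-air CAST/EiJ (log2 fold -2.56, SE 0.466, adjusted p = 5.89e-05). As for Oas2, numbers 1 and 2 (1.40 and 1.13 CPM) lay above the numbers over 100 (0.313 to 0.730 CPM), and without numbers over 100 the call was lost (log2 fold -1.81, adjusted p = 0.0647). Under BD Oas3 was 2.34-fold lower in CAST/EiJ (log2 fold -1.23, SE 0.487, adjusted p = 0.0457), a call that held in 13 of 31 alternatives and was 0.000665 in adjusted p without number 9 (log2 fold -2.04).

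Oas1a stood at 6.14, 8.78, 6.69, 4.52 and 3.64 CPM in CAST/EiJ BD libraries 7, 9, 10, 11 and 12 and at 4.14, 6.96 and 8.03 CPM as lowest, median and highest in clean-air CAST/EiJ. C57BL/6J had 4.67, 5.81 and 8.66 CPM in the same order under BD and 8.56, 6.60, 6.15, 6.97 and 7.54 CPM in clean-air replicates 1 to 5. All 4 groups overlapped. The strain difference did not pass in clean air (log2 fold -0.18, 95% interval -0.59 to 0.23, adjusted p = 0.443) or under BD (-0.05, 95% interval -0.48 to 0.37, adjusted p = 0.861). The mouse genome holds many closely related Oas1 genes, and reads that they share could be split between them; the labels do not say how the authors' counting treated such reads.

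The 2 Ifit genes are neighbours on chromosome 19. Ifit3 had 18.6, 27.9, 21.2, 18.6 and 18.04 CPM in CAST/EiJ BD libraries 7, 9, 10, 11 and 12 and 17.8, 20.1 and 23.5 CPM as lowest, median and highest in clean-air CAST/EiJ. C57BL/6J had 60.6, 67.3 and 75.9 CPM in the same order under BD and 59.6, 62.7, 58.0, 54.5 and 63.2 CPM in clean-air replicates 1 to 5. The strains lay far apart, and Ifit3 had the smallest adjusted p of the 10 genes: 2.93-fold lower in CAST/EiJ in clean air (log2 fold -1.55, SE 0.0959, adjusted p = 3.78e-12) and 3.25-fold lower under BD (log2 fold -1.70, SE 0.103, adjusted p = 3.28e-12). Mouse Ifit3 has a near-identical neighbour, Ifit3b, so that its count is uncertain to the extent that shared reads were split.

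Ifit1 had 22.9, 35.5, 21.0, 18.6 and 18.5 CPM in CAST/EiJ BD libraries 7, 9, 10, 11 and 12 and 24.2, 26.1 and 31.5 CPM as lowest, median and highest in clean-air CAST/EiJ. C57BL/6J had 14.5, 16.5 and 23.8 CPM in the same order under BD and 25.9, 21.1, 17.1, 19.9 and 21.0 CPM in clean-air replicates 1 to 5. The strains overlapped in each exposure. The log2 fold was 0.31 in clean air (95% interval 0.00 to 0.62, adjusted p = 0.0743, range over 31 alternatives 0.0177 to 0.277) and 0.35 under BD (95% interval 0.04 to 0.67, adjusted p = 0.0656, range over 31 alternatives 0.0217 to 0.367), and neither passed. Ifit1 did pass in clean air in 3 of 31 alternatives. These were the fit with only the compared groups (adjusted p = 0.0177) and those without clean-air C57BL/6J replicate 1 (0.0311) or number 9 (0.0279). Under BD it passed in 5 of 31, with DESeq2 and without number 13, 18, 11 or 12 (0.0217 to 0.0382 on leaving out 1 of these libraries).

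Isg15 had 1.82, 3.40, 1.81, 1.20 and 0.675 CPM in CAST/EiJ BD libraries 7, 9, 10, 11 and 12, against 2.30, 2.55 and 4.33 CPM as lowest, median and highest in C57BL/6J BD. These groups overlapped through number 9. In clean air CAST/EiJ had 1.09, 1.27 and 1.95 CPM in that order and C57BL/6J replicates 1 to 5 had 3.48, 2.62, 3.21, 4.78 and 3.14 CPM, with no overlap. Isg15 was 2.44-fold lower in clean-air CAST/EiJ (log2 fold -1.28, SE 0.273, adjusted p = 0.000297) and 1.71-fold lower under BD (log2 fold -0.77, SE 0.284, adjusted p = 0.0313). The BD call was lost on leaving out number 13, 18, 11 or 12 (adjusted p 0.0580 to 0.108) and held in 25 of 31 alternatives.

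**Figure D2:**
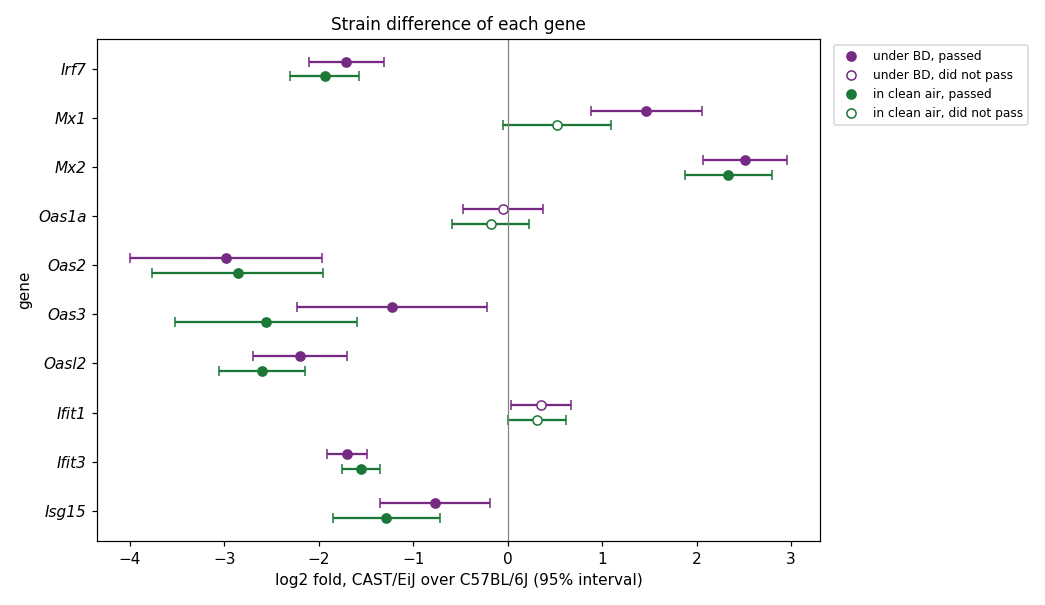
Log2 fold of each gene, CAST/EiJ over C57BL/6J, under BD (purple) and in clean air (green), with 95% intervals from the edgeR fit on 23 libraries; filled points passed an adjusted p of 0.05 over all genes and open points did not. Mx2 lies above 2 in both exposures and Oas2 near -3, while Oas1a and Ifit1 lie near 0.

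The title numbers over 100 were spread unevenly, with 5 of the 7 clean-air CAST/EiJ libraries and 1 of the 5 clean-air C57BL/6J libraries holding one. What the numbers stand for is not given in the labels. For the 7 genes that passed, the ranges of the strains did not overlap. C57BL/6J replicate 1 therefore had to lie on that same side of the 5 CAST/EiJ libraries with numbers over 100. That position is thus no check on the number series. With numbers over 100 left out, 6 of 10 genes passed in clean air, the loss being Oas3. Over all genes, the calls in this comparison went from 10491 to 7780. With number 8 kept under its label, the strain comparison under BD had 5 genes, because Oas2 (log2 fold -1.61, adjusted p = 0.05005), Oas3 (0.142) and Isg15 (0.0952) no longer passed, against 34.7% of all genes tested in that fit. The authors aligned all reads to a C57BL/6J-derived build, and the part that sequence differences of CAST/EiJ reads played in the strain folds was not tested.

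The question the exposure addresses is whether BD moved these genes. In neither strain did any of the 10 pass. In C57BL/6J 0 of 10 were called, beside 10.7% of all genes tested, and 3 had an unadjusted p under 0.05 (Mx1, Mx2 and Oasl2), beside 24.5% of all genes. DESeq2 also called 0 and limma-voom called 2 (Oas3 and Oasl2). The log2 fold, BD over clean air, was below 0 for 9 of the 10 genes, where 50.4% of all genes were below 0, and the median was -0.41 beside -0.00. The 10 genes tended to be high or low in the same libraries, so the 9 are not separate observations. Oas3 had the lowest log2 fold, -0.91 (95% interval -1.84 to 0.03, adjusted p = 0.220), with 1.19 to 4.67 CPM under BD and 3.60 to 5.01 CPM in clean air. Mx1 had -0.73 (95% interval -1.33 to -0.14, adjusted p = 0.109, range over 31 alternatives 0.0355 to 0.217), and fell once number 13 (adjusted p = 0.0380) or number 9 (0.0355) was left out or the other strain was not in the fit (0.0430). Oasl2 had -0.53 (95% interval -0.98 to -0.08, adjusted p = 0.127) and passed in 3 of 31 alternatives. Ifit3 alone lay above 0, at 0.18 (95% interval -0.02 to 0.39, adjusted p = 0.262).

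In CAST/EiJ 0 of 10 genes were called, beside 7.22% of all genes. None had an unadjusted p under 0.05, beside 28.2% of all genes, and DESeq2 and limma-voom also called 0. Their log2 folds were below 0 for 6 of the 10, beside 53.2% of all genes, with a median of -0.12 beside -0.02 over all genes. The intervals were wide for the genes with few counts: Oas3 had 0.43 (95% interval -0.60 to 1.45) and Oas2 -0.68 (95% interval -1.69 to 0.33). They were narrow for Ifit3, at 0.03 (95% interval -0.17 to 0.24). Only clean-air libraries held title numbers over 100, 5 of the 7 in CAST/EiJ. The number series and the exposure thus could not be fully told apart. For Oas2, numbers 1 and 2 (1.69 and 3.54 CPM) lay above the BD libraries (0.280 to 1.43 CPM). The numbers over 100 (0.469 to 0.807 CPM) lay within the BD range. The log2 fold of Oas2 was -1.89 to 0.69 over 31 alternatives and passed in 0. Without number 9, Mx2 fell under BD in CAST/EiJ (log2 fold -0.61, adjusted p = 0.0374), where with it the log2 fold was -0.28 (adjusted p = 0.353).

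The difference between the strains in the BD effect was tested as an interaction, the ratio of the BD folds of CAST/EiJ and C57BL/6J. It was called for 0 of 10 genes, beside 9.44% of all genes, and 1 had an unadjusted p under 0.05 (beside 29.3%), Mx1, at a log2 ratio of 0.95 (95% interval 0.14 to 1.76, adjusted p = 0.115, range over 30 alternatives 0.0446 to 0.561). It passed without number 12 only (adjusted p = 0.0446). Oas3 had the highest log2 ratio, 1.34 (95% interval -0.05 to 2.72, adjusted p = 0.186), which was 0.52 without number 9. DESeq2 and limma-voom called 0.

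**Figure D3:**
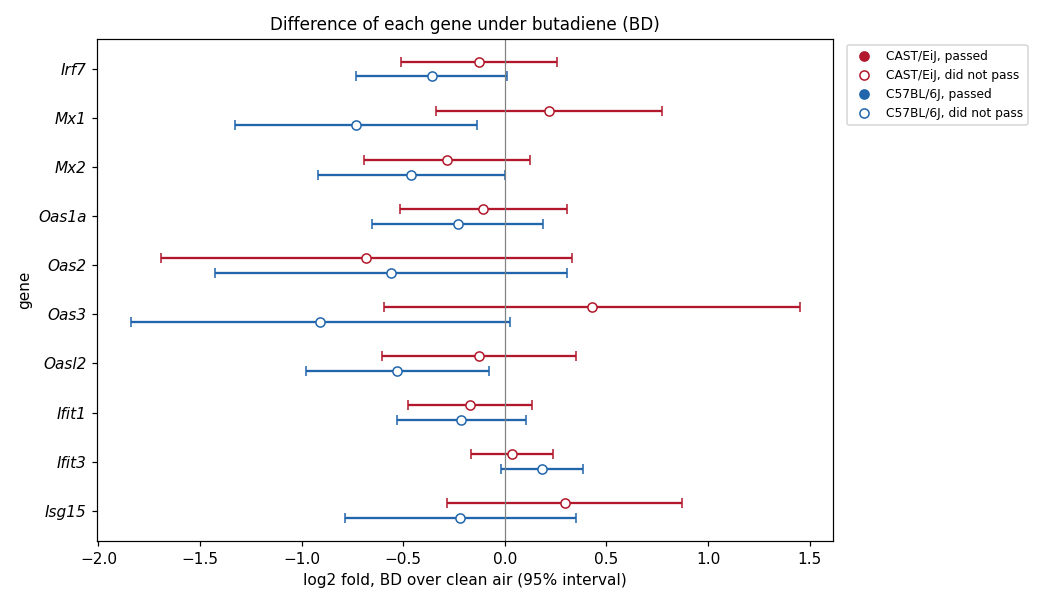
Log2 fold of each gene, BD over clean air, in CAST/EiJ (red) and C57BL/6J (blue), with 95% intervals from the same fit; all points are open because none passed at an adjusted p of 0.05. Under BD, every C57BL/6J point but that of Ifit3 lies below 0, and the CAST/EiJ points lie on both sides.

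Within groups, the 10 genes tended to be high or low in the same libraries. The deviation of each gene's log2 CPM from its group mean was averaged over the 10 genes for each library. Number 9 (CAST/EiJ BD) stood 0.95 above its group with 10 of 10 genes above the mean, the highest of the 23 libraries. Numbers 11 and 12 of the same group stood at -0.41 and -0.62, each with 0 of 10 genes above the mean. In C57BL/6J BD, numbers 13 and 18 had 10 of 10 genes above the mean (average deviation 0.56 and 0.25) and each of the other 4 had 1. Clean-air C57BL/6J libraries differed little, from -0.05 to 0.05. Over the 45 pairs of genes, Pearson's r of these deviations across 23 libraries was 0.19 to 0.86 with a median of 0.62. Without number 9 it was -0.01 to 0.80 with a median of 0.47. These are descriptions: all genes of a library share its depth and scaling, and number 9 (14678968 counts) and number 12 (50001571 counts) were the shallowest and the deepest of their group.

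**Figure D4:**
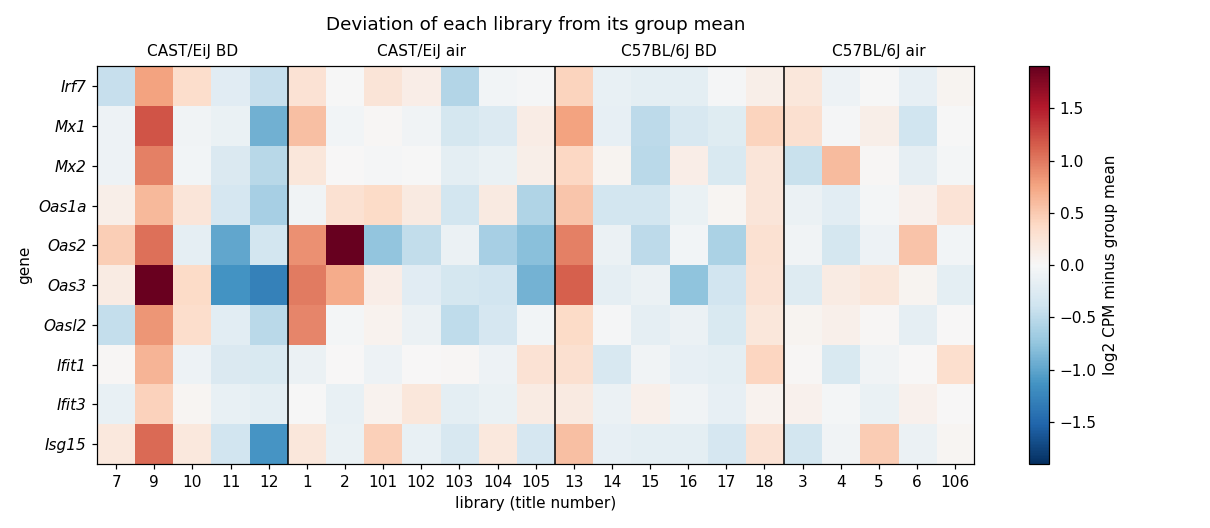
Deviation of each gene (rows) in each library (columns, by title number) from its group mean, in log2 CPM, red above and blue below the mean; the last column is clean-air C57BL/6J replicate 1. Number 9 and, less so, numbers 13 and 18 are red in all 10 rows; numbers 11 and 12 are blue in all 10.

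Markers of several immune cell types moved with some of these libraries. The summed CPM of 8 neutrophil markers, such as S100a8 and Retnlg, was 227 in number 9, against 70.6 to 134 in the other 4 CAST/EiJ BD libraries with number 12 the lowest. It was 108 in number 13 and 42.2 in number 18, against 21.6 to 29.3 in the other 4 C57BL/6J BD libraries. The sum of 5 inflammatory monocyte markers was 303 in number 9, against 180 to 241 in the rest of its group, and 145 and 134 in numbers 13 and 18, against 82.96 to 96.5. The sum of 6 plasmacytoid dendritic cell markers did not follow in CAST/EiJ BD, where number 9 was lowest at 14.6 and number 12 highest at 31.1. In C57BL/6J BD it was 39.9 and 43.2 in numbers 13 and 18, against 18.1 to 27.9 in the others. No listed marker of these types was at 0 in all libraries. The sum of 4 B cell markers was 94.6 and 104.1 in numbers 13 and 18, against 37.7 to 56.0 in the other 4 C57BL/6J BD libraries. It was 43.6 in number 9, within the 27.2 to 66.4 of the other 4 CAST/EiJ BD libraries. The part of these cell types in the level of the 10 genes was not tested.

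The genes outside the set whose deviations were most like the average of the 10 were taken over the 23 libraries. They included Ccr2 (r 0.89), the chemokine receptor of inflammatory monocytes, Rtp4 (0.85), Mir223 (0.81), Slfn4 (0.81), Timp1 (0.80), Slfn8 (0.80) and Ifi44 (0.79). Rtp4, the Slfn genes and Ifi44 are interferon-stimulated genes. Number 9 held 59.1 CPM of Ccr2, against 10.2 to 31.8 CPM in the other CAST/EiJ BD libraries. Without numbers 9 and 12, the libraries farthest from the median, r was 0.79 for Ccr2, 0.84 for Rtp4 and 0.61 for Ifi44. These values are descriptive, since all points share library depth and scaling.

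The interferons themselves were hardly measured. The 12 Ifna genes and Ifnb1 had 33 counts together over 24 libraries, with at most 2 for 1 gene in 1 library, and Ifnb1 had 3. Differences in these ligands were not detectable at this depth. Of 19 ligands in the table, only Ifnk passed the filter, and it was 1.94-fold lower in clean-air CAST/EiJ (adjusted p = 0.00185).

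The next list held the receptor and its signalling chain. In clean air 6 of its 7 genes were lower in CAST/EiJ and 0 higher, with a median log2 fold of -0.42, beside 31% lower over all genes. Stat2 had 35.5 ± 9.47 CPM in CAST/EiJ (SD, n = 7) and 67.05 ± 7.52 CPM in C57BL/6J (SD, n = 5), 1.89-fold lower (edgeR adjusted p = 6.80e-06). Irf9 was 1.42-fold lower (adjusted p = 6.99e-05) and Ifnar1 1.34-fold (3.94e-06), while Ifnar2 did not pass (log2 fold -0.15, adjusted p = 0.0532). Under BD 3 of 7 were lower, beside 22.3% of all genes, among them Stat2 (1.39-fold) and Irf9 (1.33-fold). Ifnar1 (log2 fold -0.090), Ifnar2 (-0.038), Jak1 (-0.00068) and Tyk2 (-0.11) did not pass.

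Of the negative regulators, 4 of 6 were lower and 1 higher in clean-air CAST/EiJ, where 31% of all genes were lower and 29.4% higher. Usp18, which removes Isg15 from proteins and blocks the receptor, had 10.7 ± 1.23 CPM in CAST/EiJ (SD, n = 7) and 21.7 ± 2.04 CPM in C57BL/6J (SD, n = 5), 2.02-fold lower (edgeR adjusted p = 9.64e-09), and was 2.18-fold lower under BD. Socs3 was 1.41-fold higher in clean air (adjusted p = 0.00184). Among 5 genes of Isg15 conjugation 4 were lower and 1 higher, beside the same shares of all genes. Uba7, the activating enzyme, was 2.99-fold lower (adjusted p = 1.41e-10) and Ube2l6, the conjugating enzyme, 1.25-fold higher (adjusted p = 0.00431).

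Nucleic acid sensors and their adaptors were lower for 12 of 15 genes and higher for 1 in clean-air CAST/EiJ. Over all genes 31% were lower and 29.4% higher. Tlr9, the endosomal DNA sensor, was 5.60-fold lower (adjusted p = 2.76e-07) and the adaptor Myd88 1.26-fold higher (adjusted p = 0.00157). Of 7 other Irf genes 4 were lower and 1 higher, beside the same shares of all genes. Irf8, which directs dendritic cell and monocyte development, was 2.90-fold lower (adjusted p = 1.09e-08), and Irf3, which acts with Irf7 on interferon genes, did not pass in clean air (log2 fold -0.14, adjusted p = 0.259). Under BD Irf3 was 1.32-fold lower (adjusted p = 0.00465).

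Relatives of the Oas and Ifit genes and of their pathway were called in both directions. Of 6 tested in clean air 4 were lower and 1 higher in CAST/EiJ, beside 31% and 29.4% of all genes. Oasl1 was 3.63-fold lower (adjusted p = 2.40e-06) and Oas1g 1.71-fold higher (adjusted p = 0.00959), while Oas1b had a log2 fold of -0.37 (adjusted p = 0.0713). Ifit2 was 3.40-fold lower under BD (adjusted p = 1.56e-07). Of 39 other interferon-stimulated genes 21 were lower and 7 higher in clean air, with a median log2 fold of -0.37. Over all genes 31% were lower and 29.4% higher, with a median of -0.00. Ifi44 was 9.11-fold lower (adjusted p = 2.17e-06), with 1.20 ± 0.816 CPM in CAST/EiJ (SD, n = 7) and 10.8 ± 1.72 CPM in C57BL/6J (SD, n = 5). Slfn4 was 2.12-fold higher (adjusted p = 0.0466).

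**Figure D5:**
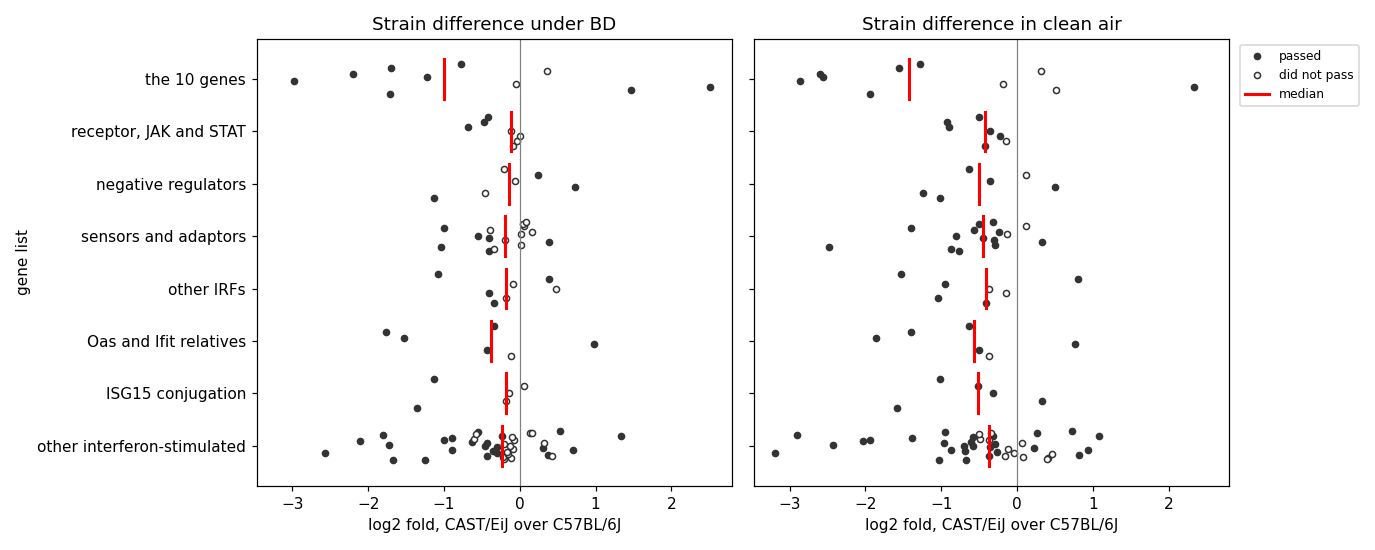
Log2 fold of each tested gene, CAST/EiJ over C57BL/6J, by gene list, under BD (left) and in clean air (right); filled points passed an adjusted p of 0.05 over all genes, open points did not, and the red bar is the list's median. All medians lie below 0 in both panels, and that of the 10 genes is the lowest.

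For the BD effect, some of these lists held more calls in C57BL/6J than in CAST/EiJ. The lists closest to the 10 genes did not: 0 of 6 relatives of the Oas and Ifit genes were called in either strain. The same held for 0 of 5 genes of Isg15 conjugation. Of 7 genes of the receptor and its signalling chain 2 fell in C57BL/6J and 0 in CAST/EiJ. In C57BL/6J 4 of 7 other Irf genes fell and 0 rose, among them Irf4 (1.93-fold, adjusted p = 0.0360), where 6.49% of all genes fell and 4.2% rose. Of 39 other interferon-stimulated genes 8 fell and 0 rose, with Ifi203 1.98-fold lower (adjusted p = 0.00560). Of 15 sensors and adaptors 3 fell, with Tlr9 2.64-fold lower (adjusted p = 0.00485) and an interaction that was called (log2 ratio 1.44, adjusted p = 0.0417), and of 6 negative regulators 2 fell, one of them Socs1 (2.0-fold, adjusted p = 0.0299). In CAST/EiJ, where 7.22% of all genes were called, 1 gene of these lists was called, Epsti1, which fell 1.76-fold (adjusted p = 0.00791). These lists hold genes that immune cells express, and in C57BL/6J 4 of 4 B cell markers and 2 of 5 T and NK cell markers fell under BD as well. The summed B cell markers were 37.7 to 104.1 CPM in C57BL/6J BD and 115 to 205 CPM in clean air, and the part of such cells in these results was not tested. Between the strains in clean air, 5 of 5 T and NK cell markers and 4 of 4 B cell markers were lower in CAST/EiJ, with summed T and NK markers of 3.99 to 8.51 CPM in CAST/EiJ and 24.8 to 35.0 CPM in C57BL/6J. Neutrophil and inflammatory monocyte markers went mostly the other way, with 3 of 7 and 3 of 5 higher and 1 each lower. Over all genes 29.4% were higher and 31% lower in this comparison. Of 6 plasmacytoid dendritic cell markers 4 were lower, among them Siglech (4.18-fold, adjusted p = 0.000274), and 1, Klk1, was higher. Their part in the strain folds was not tested.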

How the data were processed

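The authors deposited 1 table of read counts by gene symbol for the RNA-seq libraries. Per the submitters' processing notes, GSNAP was used and the build was mm9. The counter, its annotation and its strand setting are not stated in the labels. Of 23893 entries, 21 had no value in the libraries labelled CAST/EiJ (19 of them on chromosome Y in RefSeq) and were left out. The small RNA table was not used here, and the 24 chromatin accessibility samples were not analysed here. No library was a copy of another (chi-square per degree of freedom at least 5.20 over 276 pairs).

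From the counts, 1 model with a mean for each of 4 groups was fitted to 23 libraries with edgeR 4.0.16 in R 4.3.3 (filterByExpr, TMM scaling, robust dispersions, quasi-likelihood F tests). P-values were adjusted by Benjamini-Hochberg over 17377 genes, and adjusted p under 0.05 was called. CPM were computed with TMM-scaled library sizes. Deviations used log2 CPM with a prior count of 2. The fit was tested on simulated data. Of simulated 1.5-fold changes it recovered 62.7% for BD in C57BL/6J, 61.2% for BD in CAST/EiJ and 43.3% for the interaction. For the strain comparisons it recovered 71.6% in clean air and 74.6% under BD. Each simulated gene had the same mean in all groups before the change, and genes were drawn independently. Only genes with a mean above 1 CPM were changed. The rates therefore need not hold for genes that move together, or for Oas2 and Oas3, whose medians in CAST/EiJ were below 1 CPM. Alternatives were DESeq2 1.42.0, limma-voom (limma 3.58.1), median-of-ratios factors, no filter, only the compared groups, number 8 kept, numbers over 100 left out, the number series as a covariate, and each library left out. Promoter windows and the names of neighbours came from RefSeq (GRCm38.p6), whose build differs from that of the counts.

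All 10 genes are reported in full. From the other lists, the called gene with the largest absolute log2 fold per direction and comparison (mean of at least 1 CPM) was named, besides the receptors, Stat2, Irf9, Usp18, Irf3, Ifnb1 and Oas1b. The 8 most alike genes passed over predicted symbols. A few genes that these rules select are not reported here. The genes and lists were chosen with earlier results of these data known.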

Additional observations from a re-analysis of the deposited data

Results flagged for a closer look

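In all, 55 groups of values, the levels of the 10 genes among them, were checked for a library far from the rest (Dixon's test at 95%). Of these 13 stood out, where independent checks would give about 1 in 20, or 2.75. The checks were not independent: the genes tended to move together, and CAST/EiJ BD was checked with and without number 8. The 13 therefore cannot be read as an excess. In CAST/EiJ BD, number 9 was far above the others for Mx1 (17.3 CPM, against 3.93 to 7.15), Mx2 (43.8 CPM, against 15.6 to 21.7), Oas3 (2.93 CPM, against 0.245 to 0.964) and Ifit1 (35.5 CPM, against 18.5 to 22.9), and for Mx1 and Ifit1 also when number 8 was kept in the group. With number 8 kept, number 8 itself stood out for Oas2 (7.71 CPM, against 0.280 to 1.43), Oasl2 (29.3 CPM, against 3.39 to 8.85) and Ifit3 (59.4 CPM, against 18.04 to 27.9). In clean-air CAST/EiJ, number 2 was high for Oas2 (3.54 CPM, against 0.469 to 1.69), number 1 for Oasl2 (10.3 CPM, against 3.78 to 5.60) and replicate 5 for Ifit1 (31.5 CPM, against 24.2 to 26.4). In clean-air C57BL/6J, number 6 was high for Oas2 (11.9 CPM, against 6.43 to 7.78).

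The BD effect differed between the strains, by the interaction term of the edgeR fit, for 13 genes named from the other lists. Most were named because they were called, and 9.44% of all genes were called. Other genes of these lists, such as Irf2 and Cd8a, were called as well. Over all genes 1641 were called, against 84 with the number series as a covariate and 320 without numbers over 100. The log2 ratio of the BD effect in CAST/EiJ to that in C57BL/6J was above 0 for Cd3e (1.87, adjusted p = 0.0265), Mmp9 (1.52, 0.0378), Tlr9 (1.44, 0.0417), Ccr2 (1.39, 0.0476), Ccr9 (0.90, 0.0401), Irf5 (0.87, 0.0314), Trim25 (0.57, 0.0307), Helz2 (0.53, 0.0265), Ifnar1 (0.33, 0.0293) and Pias1 (0.30, 0.0450). It was below 0 for Marco (-1.37, adjusted p = 0.00897), Bst2 (-0.64, 0.0293) and Ube2l6 (-0.50, 0.0265).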

How the results depend on the processing

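No paired analysis was possible because the title numbers do not recur between groups. Over 31 alternatives for each of the 10 genes (30 for the interaction), 304 of 310 values in the clean-air strain comparison and 277 of 310 under BD kept their direction and their side of the threshold, as did 303 of 310 for BD in C57BL/6J, 292 of 310 for BD in CAST/EiJ and 281 of 300 for the interaction. The number of the 10 genes called for BD in C57BL/6J was 2 with limma-voom, 2 with only the compared groups, 1 with the number series as a covariate and 0 to 1 on leaving out 1 library. For BD in CAST/EiJ and for the interaction it was 0 to 1 on leaving out 1 library. In the strain comparisons it was 7 to 9 in clean air and 7 to 8 under BD on leaving out 1 library, and 5 under BD with number 8 kept. The number of all genes called moved more. For BD in C57BL/6J (1857) it was 3016 without numbers over 100, 3368 with the number series as a covariate and 977 to 2309 on leaving out 1 library. For BD in CAST/EiJ (1255) it was 2261 with DESeq2, 159 with only the compared groups, 2390 with number 8 kept, 627 without numbers over 100, 275 with the covariate and 354 to 3007 on leaving out 1 library. For the interaction (1641) it was 2507 with DESeq2, 1041 without a filter, 320 without numbers over 100, 84 with the covariate and 372 to 3392 on leaving out 1 library. Signs turned only for values that did not pass. For BD in CAST/EiJ the log2 fold with number 8 kept was 0.30 for Irf7, 0.69 for Oas2 and 0.70 for Oasl2. With limma-voom it was -0.062 for Mx1, -0.20 for Oas3, -0.013 for Ifit3 and -0.047 for Isg15, without numbers over 100 it was -0.064 for Mx1 and -0.43 for Oas3, and with the covariate -0.091 for Oas3. On leaving out 1 library it was -0.21 to 0.41 for Mx1, -0.28 to 0.039 for Oas1a, -0.38 to 0.73 for Oas3, -0.38 to 0.090 for Oasl2, -0.090 to 0.086 for Ifit3 and -0.060 to 0.53 for Isg15. In the strain comparison under BD it was -0.23 to 0.10 for Oas1a. For the interaction it was -0.032 (Mx2) and 0.12 (Oas2) with limma-voom, -0.013 (Mx2), 1.25 (Oas2) and 0.24 (Ifit3) with number 8 kept, and -0.039 (Oas1a) and -0.096 (Oasl2) without numbers over 100. On leaving out 1 library it was -0.00040 to 0.35 for Irf7, -0.15 to 0.31 for Mx2, -0.051 to 0.27 for Oas1a, -0.44 to 0.42 for Oas2 and -0.16 to 0.13 for Ifit1. The cause was not tested. Oas2 and Oas3 were limited by depth, with as few as 6 and 4 counts in a library.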
